A study of Mus musculus with 2 samples.

Results

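Inhbb, Inha, Gdf11, Gdf15, Gdf10 and Gdf6 encode ligands or ligand subunits of the activin, inhibin and growth differentiation factor (GDF) family other than Inhba. They were taken by gene symbol as 6 of the 32285 mouse genes counted, and their unique molecular identifiers (UMIs, each standing for 1 captured transcript) were followed through the cell classes of omental tumors. The tumors grew from KPCA cells, a mouse line that models high-grade serous ovarian cancer with, among other alterations, mutant Trp53 and overexpressed Ccne1 and Akt2, grafted into the peritoneum of C57BL/6J mice. In both groups Fst, the follistatin gene, had been knocked out in a KPCA clone, named KPCA.FSTKO. In KPCA.FSTKO_hFSTL3 that line also carried a plasmid for human FSTL3, as 1 stable clone chosen for its FSTL3 secretion. At day 10 after grafting 4 tumors per genotype were pooled into 1 library, so no value has a replicate, no test between genotypes or classes was possible, and the 95% intervals given cover counting error only.

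Activins are dimers of inhibin beta subunits, and Inhbb supplies the subunit of activin B. Inha encodes the alpha subunit, which pairs with a beta subunit to form inhibin, an antagonist of activin. Activins and several GDFs bind type II receptors such as ACVR2A and ACVR2B and signal through SMAD proteins, and follistatin and FSTL3 bind and neutralise activins and GDF11. GDF15 is a distant member known as a stress-induced cytokine with the receptor GFRAL in the hindbrain, while GDF6 and GDF10 belong to the bone morphogenetic protein branch.

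Barcodes with a mitochondrial share under 20% and a gene number above 200 and below 8000 were kept, which left 6777 KPCA.FSTKO cells with a median of 17253 UMIs and 4041 KPCA.FSTKO_hFSTL3 cells with a median of 15071. Each cell was gated to 1 of 14 classes by fixed marker lists. The gate placed 5818 KPCA.FSTKO cells (85.8%) but 1019 cells (25.2%) of the KPCA.FSTKO_hFSTL3 library, in which 3018 barcodes (74.7%) carried markers of unrelated classes, most often pancreatic acinar with another class. Acinar marker genes took 0.917% of all UMIs there, against 0.0277% in KPCA.FSTKO. The values therefore come mainly from KPCA.FSTKO, with 4149 cancer-gated, 859 macrophage-gated, 231 fibroblast-gated, 103 endothelial-gated, 72 myofibroblast-gated and 37 pericyte-gated cells. The deposited cell type label was fallopian tube epithelial cells. Over all KPCA.FSTKO barcodes, immune and stromal ones included, Krt18 was present in 64.2% and Hmga2 in 73.7%. Epcam, a defining epithelial marker, was present in 0.871%, Pax8 in 2.02%, Cldn3 in 2.35% and Cldn4 in 0.354%. The other markers of the cancer list lay between 27.0% (Lbp) and 64.6% (Krt8). Fst itself still gave 5.13 UMIs per 1000000 UMIs of the class (CPM) in KPCA.FSTKO cancer-gated cells, from 569 UMIs. In those of KPCA.FSTKO_hFSTL3 it was at 8.12 CPM from 70 UMIs. By qPCR the study found Fst expression completely lost in both lines. In KPCA.FSTKO Fst was at 236.5 CPM in myofibroblast-gated and 110.0 CPM in fibroblast-gated cells. Counts at the transcript end need not cover the edited part of a gene, and the source of these UMIs was not tested. The libraries shared 12 barcodes.

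Inhbb (ENSMUSG00000037035, GRCm38 chromosome 1 from 119415465 to 119422248, minus strand) was mainly an endothelial and fibroblast gene in these tumors and was nearly absent from the cancer cells. In KPCA.FSTKO the endothelial-gated cells held 322 of its 774 UMIs, a level of 375.3 CPM (335.4 to 418.6). The fibroblast-gated cells followed with 248 UMIs and 62.7 CPM (55.2 to 71.1), and the myofibroblast-gated cells with 32 UMIs and 22.9 CPM (15.6 to 32.3). The 4149 cancer-gated cells together held 32 UMIs, or 0.288 CPM (0.197 to 0.407).

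The lead of the endothelial class was clear in KPCA.FSTKO. Inhbb was 5.98-fold higher (5.05 to 7.09) in endothelial-gated than in fibroblast-gated cells, and 2.74-fold higher (1.89 to 4.10) in fibroblast-gated than in myofibroblast-gated cells. When a marker was called present at a level halved, fibroblast-gated cells were at 88.4 CPM (77.6 to 100.3) and the first of these ratios was 3.97 (3.32 to 4.74). Pericyte-gated cells, at 7.19 CPM from 4 UMIs (1.96 to 18.4), overlapped with myofibroblast-gated cells in their intervals, as did the pancreatic acinar-gated cells with 2 UMIs. Macrophage-gated cells were at 0.605 CPM from 7 UMIs, overlapping with the cancer cells. No Inhbb UMI was seen in the 66 T or NK-gated cells, which allows up to 7.26 CPM, or in the 104 neutrophil-gated cells, which allows up to 10.4 CPM.

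Among 14094 genes with enough UMIs, 16.8% were at least 2-fold higher in endothelial-gated cells than in all other gated cells, and Inhbb was among these with a ratio of 150.5 (128.6 to 176.1), above 99.5% of the genes. Inhbb was seen in 58 of 103 endothelial-gated cells (56.3%) at a median depth of 3658 UMIs, against 23 of 4149 cancer-gated cells (0.554%) at a median depth of 25177. With every cell thinned to 1000 UMIs the shares were 19.5% of 87 endothelial-gated, 3.51% of 228 fibroblast-gated and 0.0752% of 3988 cancer-gated cells.

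**Figure D1:**
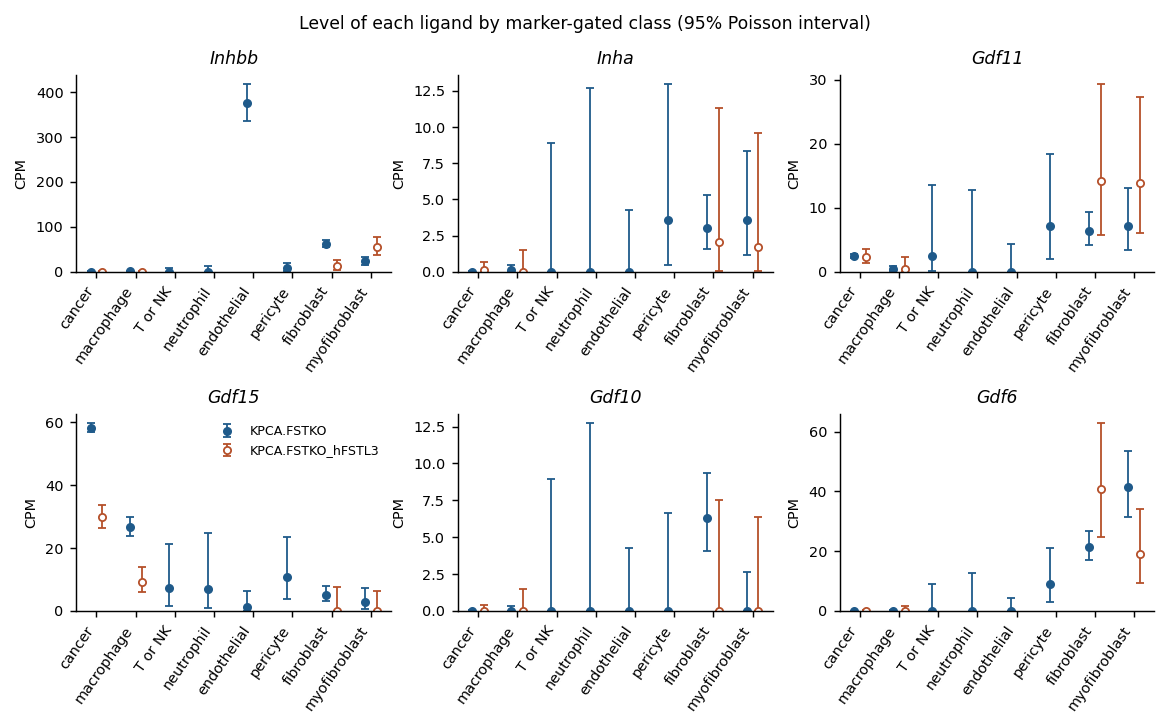
Level of each ligand in CPM (linear axis, its own range in each panel) by gated class, with filled points for KPCA.FSTKO, open points for KPCA.FSTKO_hFSTL3 where the class has at least 15 cells, and bars for exact 95% Poisson intervals. Inhbb is highest in endothelial-gated cells at 375.3 CPM, Gdf15 in cancer-gated cells at 58.3 CPM and Gdf6 in myofibroblast-gated cells at 41.4 CPM, all in KPCA.FSTKO.

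Inhbb was unevenly spread within both classes. In endothelial-gated cells 45 of 103 had no UMI, 18 had 1, 28 had between 2 and 9, and 12 cells with at least 10 UMIs held 60.6% of the Inhbb UMIs. The highest cell had 37 UMIs, and the level without it was 356.7 CPM. In fibroblast-gated cells 70 of 231 (30.3%) had a UMI and 6 cells with at least 10 held 34.7% of the UMIs. In raw UMIs, not adjusted for depth, a part of both classes held most of the Inhbb counted. Among the cells thinned below, those with and without Inhbb had median full depths of 9640 and 4952 UMIs in endothelial-gated cells. In fibroblast-gated cells these were 17075 and 17826. The part of depth in the uneven spread was not tested.

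To see which fibroblasts these were, the 207 fibroblast-gated cells with enough UMIs were thinned to 5000, and the 38 with an Inhbb UMI were set beside the 169 without. Of 1719 genes counted, 3.72% were at least 2-fold higher in the cells with Inhbb and 5.06% at least 2-fold lower. Postn, encoding periostin, was 6.59-fold higher (5.56 to 7.83), with 91 of its 338 UMIs in 1 cell, Lama2, a laminin chain of basement membranes, was 6.39-fold higher (4.76 to 8.61), and Sparcl1 was 4.73-fold higher (3.89 to 5.75). The proteoglycan gene Lum was 3.0-fold higher (2.39 to 3.76), the fibroblast genes Mfap5 and Fap were 2.35-fold and 2.25-fold higher, and Dcn was at 0.714 times (0.646 to 0.787) its level in the other fibroblasts. Postn, a marker of the myofibroblast gate, and Lama2 were named after their values were seen. The rest are fibroblast markers of the gate, and cells of 1 library are not replicates.

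The partner beta subunit gene Inhba was at 52.6 CPM in fibroblasts with Inhbb and at 159.8 CPM in those without, a ratio of 0.329 (0.154 to 0.625). The activin inhibitor gene Fst went the same way, with a ratio of 0.465 (0.206 to 0.925), and Fstl3 had a ratio of 0.741 (0.303 to 1.58). The Inhba ratio came from 10 UMIs against 135. Inhba was seen in 21.1% of the fibroblasts with Inhbb and in 26.0% of those without. The share of cells with Inhba thus differed less than its UMIs in this library.

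Endothelial-gated cells with and without Inhbb could be compared over fewer genes. Thinned to 2000 UMIs, 31 of 72 endothelial-gated cells had an Inhbb UMI, and 0% of the 178 genes counted were 2-fold higher or lower in them. Fewer cells and a lower depth leave the most abundant genes in this count, so the share is not comparable with that of the fibroblasts. Igfbp3 had the largest ratio among the genes counted, 1.80 (1.46 to 2.22), while the endothelial marker Esam, with 39 and 26 UMIs, was under the minimum at 1.98 (1.18 to 3.39). The vascular receptor gene Flt1 had a ratio of 1.27 (1.08 to 1.51), and Pecam1 and Cdh5 had ratios of 0.971 and 0.877 with intervals on both sides of 1. The median full depth was 9640 UMIs in the cells with Inhbb and 4952 in those without.

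The KPCA.FSTKO_hFSTL3 library put Inhbb in the same leading class, on few cells. Its 9 endothelial-gated cells held 31 UMIs in 8 cells, or 217.9 CPM (148.0 to 309.3). The 17 myofibroblast-gated cells were at 55.3 CPM, with 25 of 32 UMIs in 1 cell. The 17 fibroblast-gated cells were at 12.2 CPM from 6 UMIs, 0.221 times (0.0754 to 0.535) the myofibroblast-gated level. The order of these 2 classes thus differed from KPCA.FSTKO. No Inhbb UMI was found in its 175 cancer-gated cells. Barcodes with markers of unrelated classes held 70.1% of the Inhbb UMIs of this library.

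Inha (ENSMUSG00000032968, GRCm38 chromosome 1 from 75507077 to 75510366, plus strand) was detected in 28 KPCA.FSTKO cells with 1 UMI each. Of these UMIs 12 lay in fibroblast-gated cells (3.04 CPM, 1.57 to 5.30), 5 in myofibroblast-gated cells (3.57 CPM, 1.16 to 8.34) and 2 in pericyte-gated cells, whereas cancer-gated and macrophage-gated cells had 1 each. The levels of the stromal classes were not distinguishable from each other at this depth. Regardless of the gate, 25 of the 28 barcodes with Inha (89.3%) carried at least 3 fibroblast markers, against 10.6% of the barcodes without it. Inhbb was in 5 of the 12 fibroblast-gated and in 4 of the 5 myofibroblast-gated cells with Inha, so both subunits of inhibin B were counted together in those barcodes. The KPCA.FSTKO_hFSTL3 library held 27 Inha UMIs, 22 of them in barcodes with markers of unrelated classes.

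Gdf11 (ENSMUSG00000025352, GRCm38 chromosome 10 from 128882295 to 128891718, minus strand), a close relative of myostatin, was low and seen mainly in cancer and stromal classes. The cancer-gated cells of KPCA.FSTKO held 264 of its 350 UMIs in 244 cells, but at only 2.38 CPM (2.10 to 2.68). The stromal classes were higher, with 6.32 CPM (4.09 to 9.34) in fibroblast-gated cells from 25 UMIs, 7.15 CPM (3.43 to 13.1) in myofibroblast-gated cells from 10 and 7.19 CPM (1.96 to 18.4) in pericyte-gated cells from 4. These 3 overlapped in their intervals.

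Gdf11 was 2.66-fold higher (1.69 to 4.01) in fibroblast-gated and 3.0-fold higher (1.42 to 5.61) in myofibroblast-gated than in cancer-gated cells, and 6.88-fold higher (2.66 to 25.5) in cancer-gated than in macrophage-gated cells, which had 4 UMIs. No UMI was found in endothelial-gated cells, which allows up to 3.50 CPM. In contrast to Inhbb and Gdf15, no KPCA.FSTKO cell had more than 3 Gdf11 UMIs, and the highest KPCA.FSTKO_hFSTL3 barcode had 4. In the KPCA.FSTKO_hFSTL3 library these stromal classes were again above the cancer cells, with 14.2 CPM in fibroblast-gated cells from 7 UMIs, 13.8 CPM in myofibroblast-gated cells from 8 and 2.32 CPM in cancer-gated cells from 20.

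Gdf15 (ENSMUSG00000038508, GRCm38 chromosome 8 from 70629393 to 70632456, minus strand) was highest in cancer cells and next highest in macrophages. Of its 7069 UMIs in KPCA.FSTKO 91.5% lay in cancer-gated cells, at 58.3 CPM (56.9 to 59.7). Macrophage-gated cells were at 26.9 CPM (24.0 to 30.0) from 311 UMIs, 2.17-fold below (1.94 to 2.44). Gdf15 was 3.32-fold higher (2.99 to 3.71) in cancer-gated than in all other gated cells, where 18.9% of the 14094 genes were at least 2-fold higher.

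The other classes were well below. Pericyte-gated cells were at 10.8 CPM from 6 UMIs, T or NK-gated cells at 7.26 CPM from 3, neutrophil-gated cells at 6.90 CPM from 2, fibroblast-gated cells at 5.06 CPM (3.09 to 7.81) from 20, and endothelial-gated cells at 1.17 CPM from 1. Among these classes the intervals overlapped. Macrophage-gated cells were 5.31-fold higher (3.38 to 8.82) than fibroblast-gated cells.

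Transcripts of cancer cell genes were counted in the other classes too, and their levels are given beside those of Gdf15. Macrophage-gated cells had 46.1% of the cancer-gated CPM of Gdf15, but 3.53% of that of Krt18, 4.02% of that of Krt8 and 4.93% of that of Msln. Fibroblast-gated cells had 8.68% of the cancer-gated CPM of Gdf15 and 2.57%, 5.43% and 4.18% of those of Krt18, Krt8 and Msln. For Gdf15 and Krt18 the values were 12.5% and 7.40% in T or NK-gated cells, 11.8% and 15.8% in neutrophil-gated cells and 2.00% and 3.69% in endothelial-gated cells, from at most 3 Gdf15 UMIs in each. The part of free RNA in these levels was not tested. One macrophage-gated cell held 41 of the 311 UMIs, and without it the level was 23.4 CPM. Without the 1% of macrophage-gated cells with most Gdf15 it was 17.0 CPM (14.7 to 19.6). Gdf15 was seen in 14.3% of macrophage-gated cells at a median depth of 12812 UMIs and in 34.1% of cancer-gated cells at 25177, and in 2.12% and 4.39% after thinning to 1000 UMIs.

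**Figure D2:**
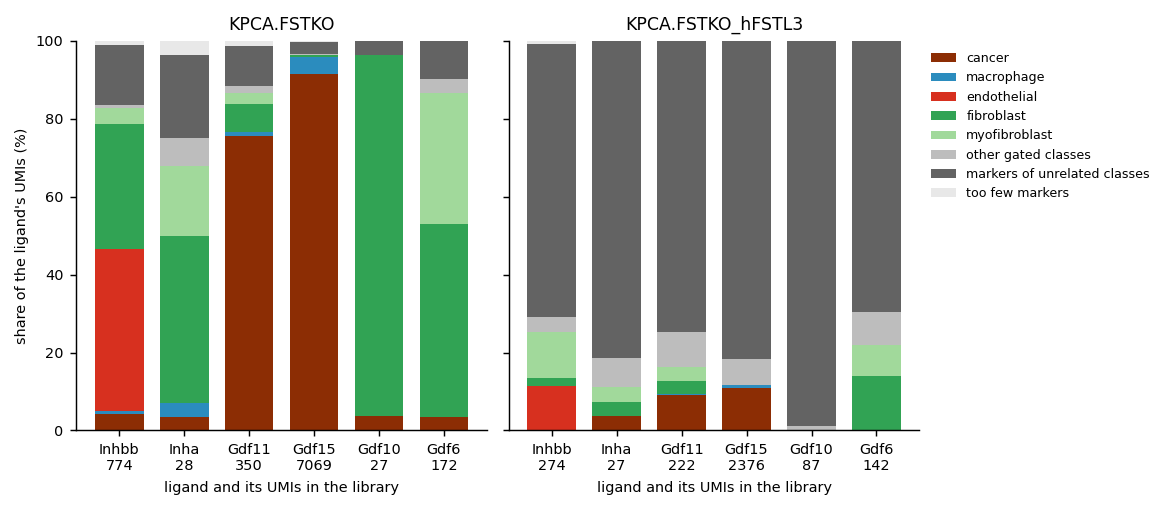
Percent of each ligand's UMIs (vertical axis) found in each gated class and in ungated barcodes, as 1 stacked bar per gene, with 1 panel per library and the number of UMIs under each bar. In KPCA.FSTKO 91.5% of Gdf15 UMIs lie in cancer-gated cells, while in KPCA.FSTKO_hFSTL3 81.6% lie in barcodes with markers of unrelated classes.

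In raw UMIs, not adjusted for depth, Gdf15 was concentrated in few cancer cells. In KPCA.FSTKO 2736 of the 4149 cancer-gated cells had no UMI, 552 had 1 and 697 had between 2 and 9, while the 164 cells with at least 10 held 49.7% of the UMIs. The top 42 cells (1%) held 23.2%, and the highest cell had 97. In the 175 cancer-gated cells of KPCA.FSTKO_hFSTL3, 4 cells had at least 10 UMIs and held 18.3%, and the highest had 15.

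**Figure D3:**
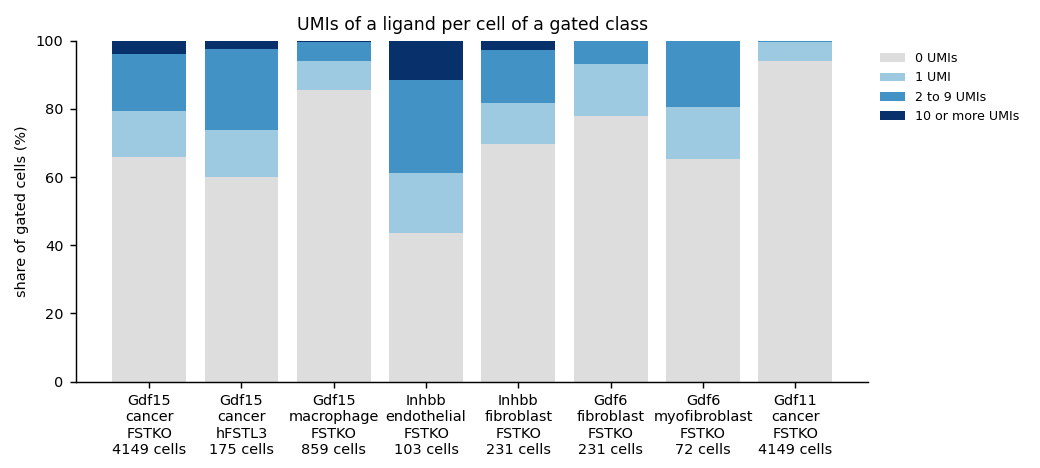
Percent of the cells of a gated class (vertical axis) with 0, 1, 2 to 9, and 10 or more UMIs of a ligand, as stacked bars labelled by ligand, class, library and number of cells. The part with 10 or more UMIs is widest for Inhbb in endothelial-gated cells, with 12 of 103 cells, and absent for Gdf6 and for Gdf11, which reaches at most 3 UMIs in a cancer-gated cell of KPCA.FSTKO.

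Cancer-gated cells of different clusters differed in Gdf15. It ran from 42.0 CPM to 70.6 CPM in 7 of the 8 clusters with at least 80 such cells, and was 6.89 CPM (4.08 to 10.9) in the remaining one, cluster 11, with 279 cells and a median of 8546 UMIs. In that cluster Trib3 (6.12 CPM) and Atf3 (7.65 CPM) were also below their levels in cluster 2, which had the most Gdf15 (27.9 and 42.4 CPM). Atf3 did not follow Gdf15 across the other clusters, since it was higher than in cluster 2 in clusters 1, 7, 8 and 12, at 55.4, 58.3, 76.4 and 142.5 CPM, where Gdf15 was at 53.2, 42.0, 44.5 and 64.2 CPM. The clusters were drawn from the same counts, so these values are a description.

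GDF15 is known as a target of the integrated stress response and of p53, so a list of 12 genes of these responses was set beside it. The cancer-gated cells of KPCA.FSTKO were thinned to 10000 UMIs, leaving 3204 cells, of which 793 (24.8%) had a Gdf15 UMI. Of 10899 genes counted, 0.22% were at least 2-fold higher in the cells with Gdf15 and 0.33% at least 2-fold lower. Of the stress list 2 of 12 were at least 2-fold higher and none was at least 2-fold lower, with a median ratio of 1.63. For 11 of 12 the interval lay above 1. The lowest ratio of the list, that of Mdm2, was at percentile 73.4 of the genes counted, and the next, that of Ddit4, at 95.6. The share of all genes with an interval above 1 was not counted.

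The largest ratios were those of Chac1, Trib3, Ddit3, Asns and Atf3, genes of the ATF4 branch. Chac1, a glutathione-degrading enzyme, was at 16.5 CPM in cells with Gdf15 and 5.64 CPM in those without, a ratio of 2.93 (2.29 to 3.75). The pseudokinase gene Trib3 had a ratio of 2.48 (2.11 to 2.92), Ddit3, encoding the transcription factor CHOP, 1.94 (1.77 to 2.12), Asns 1.89 (1.73 to 2.05), and Atf3 1.81 (1.64 to 2.00). The ratio of Atf4 itself was 1.65 (1.53 to 1.77), and those of Sesn2, Ppp1r15a, Cebpb and Ddit4 lay between 1.31 and 1.61.

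Of the p53 targets, Cdkn1a, the cell cycle inhibitor p21, had a ratio of 1.37 (1.27 to 1.48), and Mdm2, the p53 ubiquitin ligase, 1.08 (0.944 to 1.23). For comparison, the ratios of the keratin genes Krt8 and Krt18 were 1.07 and 1.11, that of Inhba was 1.25 (1.13 to 1.39) and that of Fst 1.06 (0.733 to 1.52). Cells with Gdf15 had a median full depth of 34091 UMIs, a mitochondrial share of 3.35% and 3186 genes after thinning, against 29838, 3.69% and 3227 in those without. The part of these differences in the ratios was not tested.

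The levels of these genes were higher in cells with more Gdf15 UMIs. From the 2411 cells with 0 to the 440 cells with 1 and the 353 cells with at least 2, Chac1 went from 5.64 to 14.1 and 19.5 CPM. Trib3 went from 14.3 to 30.0 and 42.2 CPM and Ddit3 from 50.6 to 81.6 and 118.4 CPM. Atf3 went from 42.9 to 55.5 and 105.7 CPM. In the 4 clusters with at least 80 cells that had Gdf15, all 12 ratios were above 1 in clusters 1 and 7 and 11 of 12 in clusters 2 and 6, where that of Mdm2 was 0.854 and 0.843, and for Atf3, Atf4, Ddit3, Trib3, Asns and Cebpb the interval lay above 1 in every one of the 4. Cluster 8 had 22 cells with Gdf15 and 108 without, and there 9 of 12 ratios were above 1. Ddit4 was at 0.859 (0.325 to 1.94), Ppp1r15a at 0.669 (0.128 to 2.23) and Sesn2 at 0 UMIs against 7. For 1 gene, Ddit3, the interval lay above 1. Within clusters the share of all genes with a ratio above 1 was not counted.

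**Figure D4:**
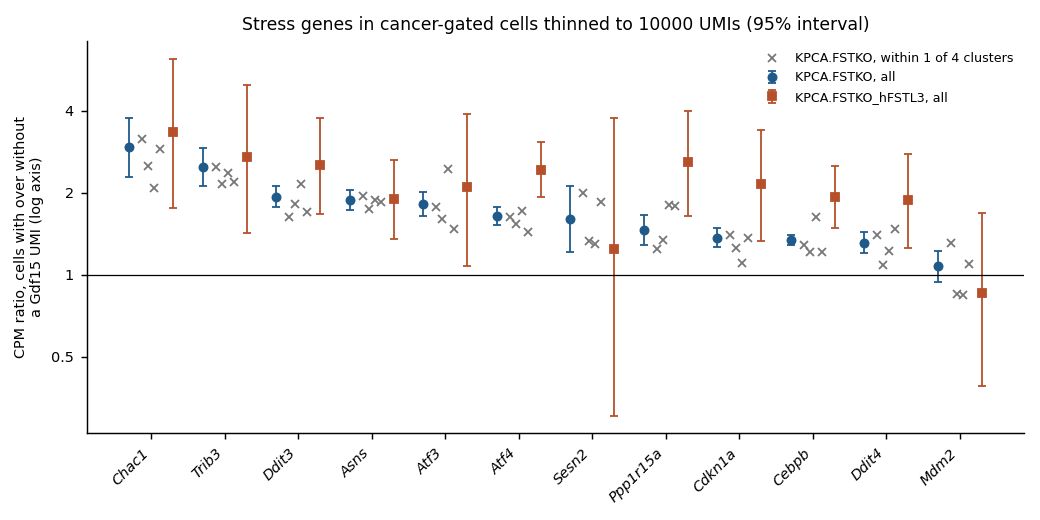
CPM ratio (log axis) of the 12 stress genes in cancer-gated cells with a Gdf15 UMI over those without, after thinning to 10000 UMIs, with 95% counting intervals. Circles are all cells of KPCA.FSTKO, running from 1.08 for Mdm2 to 2.93 for Chac1, crosses are 4 clusters of that library and squares are all cells of KPCA.FSTKO_hFSTL3, with wider intervals from 171 cells.

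Outside the list, genes of large ratio were named after their values were seen. The cystine transporter gene Slc7a11 had a ratio of 2.64 (2.32 to 3.01) and Cth, an enzyme of cysteine synthesis, 2.46 (2.01 to 3.01). The chemokine gene Cxcl1 (3.38, 2.37 to 4.83), the cornified envelope gene Sprr2e (3.24, 2.51 to 4.18) and the corneodesmosin gene Cdsn (2.78, 2.00 to 3.85) had ratios above these, with 17 of the 70 Cxcl1 UMIs and 17 of the 131 Sprr2e UMIs in single cells.

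In the KPCA.FSTKO_hFSTL3 library 26 of 171 cancer-gated cells had a Gdf15 UMI after thinning to 10000. Of 2956 genes counted, 1.08% were at least 2-fold higher beside it and 3.35% at least 2-fold lower. Of the stress list 6 of 12 genes reached the minimum of 100 UMIs, and Chac1, Trib3 and Mdm2 were under it. Chac1 had a ratio of 3.35 (1.76 to 6.20), Trib3 2.71 (1.42 to 4.97), Ddit3 2.52 (1.67 to 3.74), Slc7a11 3.53 (2.35 to 5.24) and Mdm2 0.858 (0.393 to 1.68). All but Mdm2 of these were on the same side of 1 as in KPCA.FSTKO, and the Mdm2 intervals included 1 in both libraries.

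Macrophages with Gdf15 were compared in the same way. Of 780 macrophage-gated cells of KPCA.FSTKO thinned to 5000 UMIs, 67 had a Gdf15 UMI, and 0.934% of 5137 genes were at least 2-fold higher and 2.47% at least 2-fold lower in these. The glutathione synthesis genes Gclc and Gclm, chosen after their values were seen, had ratios of 5.61 (4.13 to 7.56) and 2.76 (2.06 to 3.65), and the heme oxygenase gene Hmox1 had a ratio of 2.84 (2.62 to 3.08), with 136 of its 741 UMIs and 28 of the 69 Gclc UMIs in single cells. Of the stress list 7 of 12 genes reached the minimum of 100 UMIs. Over all 12, 9 ratios were above 1, where 52.7% of the 5137 genes had a ratio of at most 1.02. The interval lay above 1 for 3, Atf3 (1.66, 1.39 to 1.98), Mdm2 (1.54, 1.12 to 2.09) and Atf4 (1.40, 1.01 to 1.90). The share of all genes with such an interval was not counted. Cdkn1a had a ratio of 1.18 (0.989 to 1.40), and Chac1, with 3 UMIs in all, was too rare to compare. The keratin genes Krt18 (0.689, 0.309 to 1.35) and Krt8 (1.37, 0.761 to 2.32) had intervals on both sides of 1.

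The sequence upstream of Gdf15 is shown because the stress genes that accompanied it are bound by factors with known motifs. Windows of 250 bases before annotated starts were taken from RefSeq (GRCm38.p6), which matched 5 of the 6 members in 6 windows. Of these, 4 end at the gene start given above, while the Inha window and 1 of Gdf15 lie before starts 532 and 361 bases inside the gene. Both starts of Gdf15 are printed 5′ to 3′ on the minus strand with CG dinucleotides in capitals, the gene start at chr8:70632457-70632706 and the alternative start at chr8:70632096-70632345.
Gdf15 gene start: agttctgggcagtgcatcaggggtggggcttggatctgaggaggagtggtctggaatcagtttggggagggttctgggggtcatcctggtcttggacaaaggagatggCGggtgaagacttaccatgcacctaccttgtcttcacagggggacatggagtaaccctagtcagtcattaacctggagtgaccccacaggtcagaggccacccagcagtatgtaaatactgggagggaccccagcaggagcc
Gdf15 alternative start: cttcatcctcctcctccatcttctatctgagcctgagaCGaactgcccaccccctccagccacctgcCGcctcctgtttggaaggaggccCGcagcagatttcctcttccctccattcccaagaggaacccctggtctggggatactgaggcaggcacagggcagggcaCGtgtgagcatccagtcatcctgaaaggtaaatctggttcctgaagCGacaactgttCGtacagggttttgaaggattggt
Searched on both strands, the composite motif of CHOP and ATF4 (TGATGNAA, in 3.45% of the 32851 windows), the cAMP response element (TGACGTCA, 1.55%) and the AP-1 motif (TGANTCA, 6.75%) were in none of the 6 windows, which says only that these letters are not there. The windows held 1 and 6 CG dinucleotides for Gdf15, against 33 for Gdf11, 35 for Gdf10, 21 for Inhbb and 4 for Inha, where the median over all windows was 6.

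Between the libraries, cancer-gated cells had less Gdf15 where the transgene was present. The level was 58.3 CPM in KPCA.FSTKO and 29.8 CPM (26.3 to 33.7, 257 UMIs in 175 cells) in KPCA.FSTKO_hFSTL3, a ratio of 0.511 (0.450 to 0.579) or -0.97 on the log2 scale, which is short of 2-fold. It was 0.481 with TMM factors, past 2-fold, and 0.685 over all filtered barcodes of each library. Of 13051 genes with at least 100 UMIs, 7.85% were at least 2-fold lower and 3.17% at least 2-fold higher, and 7.76% of the genes had a lower ratio than Gdf15. Gdf11 was at 2.38 and 2.32 CPM, a ratio of 0.975 (0.586 to 1.54), and the remaining 4 members had too few UMIs to be counted. Cancer-gated cells made up 61.2% and 4.33% of the libraries, with median depths of 25177 and 48293 UMIs, and their part in the ratio was not tested.

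Gdf15 was also lower in macrophage-gated cells of KPCA.FSTKO_hFSTL3, at 9.34 CPM (5.92 to 14.0) from 23 UMIs against 26.9 CPM, a ratio of 0.348 (0.217 to 0.531). Here 1.65% of 8802 genes were at least 2-fold lower, and Gdf15 was among them. The stress genes did not follow Gdf15 as a group between the cancer-gated cells. Atf4 (2.24-fold) and Chac1 (3.91-fold) were at least 2-fold higher in KPCA.FSTKO_hFSTL3, 0 of 12 were at least 2-fold lower, and the median log2 ratio of the list was 0.48 against 0.01 for all genes. Cdkn1a and Atf3 were at 0.572 and 0.641 times their KPCA.FSTKO level. The clone, its tumors and its library are all single, and their parts cannot be told apart from that of the transgene.

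Gdf6 (ENSMUSG00000051279, GRCm38 chromosome 4 from 9844372 to 9862345, plus strand), a ligand of joint and skeletal patterning, was found in KPCA.FSTKO mainly in fibroblast-type cells. Myofibroblast-gated cells were at 41.4 CPM (31.5 to 53.6) from 58 UMIs in 25 of 72 cells, and fibroblast-gated cells at 21.5 CPM (17.2 to 26.6) from 85 UMIs in 51 of 231 cells. Pericyte-gated cells were at 8.99 CPM from 5 UMIs, all in 1 cell. The cancer-gated cells held 6 UMIs (0.0541 CPM), and the macrophage-gated cells held none, which allows up to 0.259 CPM. Gdf6 was 39.1-fold higher (28.1 to 54.4) in fibroblast-gated and 55.4-fold higher (39.3 to 77.5) in myofibroblast-gated than in all other gated cells. For these classes 13.4% and 11.6% of the 14094 genes were at least 2-fold higher, among them 3 of the 4 members counted, Inhbb, Gdf11 and Gdf6, in both. In cancer-gated cells 20.3% of the genes were at least 2-fold lower than in all other gated cells, Inhbb and Gdf6 among them. Of the 95 barcodes with Gdf6, 87 carried at least 3 fibroblast markers.

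The ratio of myofibroblast-gated to fibroblast-gated cells was 1.93 (1.36 to 2.72) in KPCA.FSTKO, but it did not hold its direction. It was 0.85 (0.531 to 1.31) when a marker had to reach a doubled level to be called present. The 17 cells of each class in KPCA.FSTKO_hFSTL3 also stood the other way, with 19.0 CPM from 11 UMIs in myofibroblast-gated and 40.7 CPM from 20 UMIs in fibroblast-gated cells, a ratio of 0.467 (0.202 to 1.02). Among fibroblast-gated cells Gdf6 was in 20 of the 70 with Inhbb (28.6%) and in 19.3% of the others. In contrast to Inhbb, it was not accompanied by more Postn, whose ratio in thinned fibroblasts with over without Gdf6 was 0.563 (0.354 to 0.854), with 15 of 207 cells having a Gdf6 UMI. Of 1712 genes counted, 1.23% were at least 2-fold higher and 5.55% at least 2-fold lower beside Gdf6.

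Gdf10 (ENSMUSG00000021943, GRCm38 chromosome 14 from 33923587 to 33937983, plus strand) was counted in the fewest barcodes, with 27 UMIs in 7 barcodes of KPCA.FSTKO. Of these 25 UMIs lay in 5 of the 231 fibroblast-gated cells, with 11, 6, 5, 2 and 1 UMIs, a class level of 6.32 CPM (4.09 to 9.34) of which the highest cell gave 44.0%. These 5 cells had 92, 91, 86, 93 and 20 UMIs of Dcn and each had Clec3b, an adventitial fibroblast gene, at between 1 and 13 UMIs, whereas Pi16, another adventitial fibroblast gene, was at 0 in all 5. None had a Gdf6 UMI, and 1 had an Inhbb UMI. In the KPCA.FSTKO_hFSTL3 library 86 of 87 Gdf10 UMIs lay in barcodes with markers of unrelated classes, so no class could be read there.

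Of the 42 other genes of the activin and GDF axis, 21 had at least 100 UMIs in gated KPCA.FSTKO cells, 1 of 11 ligands, 8 of 13 receptors, 7 of 13 inhibitors and 5 of 5 processing enzymes. The class with the highest level was the myofibroblast for 7, endothelial for 6, fibroblast for 5, and cancer, macrophage and neutrophil for 1 each. The share of all genes led by each class was not counted, so these numbers show no leaning of the axis to a class. Inhba, the only ligand among the 21 genes, was highest in neutrophil-gated cells at 203.6 CPM (155.0 to 262.6) from 59 UMIs. It was at 182.2 CPM, within that interval, in myofibroblast-gated cells. The level was 142.9 CPM in fibroblast-gated, 60.3 in cancer-gated and 9.32 in endothelial-gated cells. The endothelial class thus had the highest Inhbb and, of the latter 4 classes, the lowest Inhba. By UMIs, cancer-gated cells held 6697 of the 7944 Inhba UMIs in gated cells, and the study describes cancer cells as the main source. Neutrophil-gated cells also had 19.0% of the cancer-gated CPM of Krt8, and the part of free RNA in their Inhba was not tested.

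Type II receptor genes were highest in the endothelial class that led in Inhbb. Acvr2a was at 69.9 CPM (53.4 to 90.0) there, 28.8 CPM in cancer-gated and 21.5 CPM in fibroblast-gated cells. In the same order Acvr2b was at 14.0 CPM (7.23 to 24.4) from 12 UMIs, 1.42 CPM and 3.04 CPM. Bmpr2 was at 347.3 CPM (309.0 to 389.1) in endothelial-gated and 92.7 CPM in cancer-gated cells. The study describes Acvr2a and Acvr2b as high in cancer cells and fibroblasts. The type I receptor genes Acvr1b and Tgfbr1 were highest in myofibroblast-gated (32.2 CPM) and fibroblast-gated cells (156.1 CPM). Of the inhibitors, Fst was at 236.5 CPM (211.7 to 263.4) in myofibroblast-gated cells and Fstl3 at 114.3 CPM (97.3 to 133.5), while endothelial-gated cells had 0 and 1.17 CPM. Gfral, the receptor gene of GDF15, had 10 UMIs in gated cells. In the cancer-gated cells, 18 of the 42 genes could be compared between the libraries, of which 3 were at least 2-fold higher (Inhba, Acvr2b and Grem1) and 1 lower (Fstl1) in KPCA.FSTKO_hFSTL3, where 3.17% and 7.85% of all 13051 genes were higher and lower.

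The genes whose log2(CPM + 1) followed each ligand most closely over the 10 classes with at least 30 cells were named among 12812 genes. For Inhbb these were Zfp46 (Pearson r = 0.98), Fgd5 (0.97) and Apln (0.96), for Gdf6 Cpxm2, Calb2 and Lama1 (all 1.00), for Gdf11 Gm17276, Gm12963 and Mapk8ip1 (0.99, 0.99 and 0.97), and for Gdf15 1700037H04Rik, Mcpt1 and Gm46212 (0.86, 0.83 and 0.83). Fgd5 and Apln are endothelial genes, at 272.7 and 508.1 CPM in endothelial-gated cells. The classes share 1 library and differ in depth, so these values are a description.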

How the data were processed

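Single cells of 4 pooled tumors per genotype at day 10 were measured in 1 library per genotype. Libraries were prepared with the 10x Genomics 3′ chemistry. The authors aligned reads to mm10 with Cell Ranger (3.1.0 in the processing notes, 7.2.0 in the matrix header) and deposited raw UMI counts per gene and barcode, not normalized, for 7582 and 4244 barcodes, the cell numbers the study states. Its filter on mitochondrial share and genes leaves 6777 and 4041. Total UMIs after the filter were 142160061 and 69751304.

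A marker was present at 1 UMI and at least 1 in 10000, and a cell was gated to the class with the largest share of markers present, at least 3, unless an unrelated class had at least 3 and more than 50% of that share; 400 gated KPCA.FSTKO cells had exactly 3 markers. UMIs were summed per class and divided by the class total, as CPM. Intervals (95%) are exact Poisson for levels, Clopper-Pearson for shares and conditional binomial for ratios, and cover counting error only. Where a class had 0 UMIs, the limit given is that of 3 UMIs in the class. Genes entered a comparison with at least 100 UMIs over the cells compared and were called at a CPM ratio of 2. Doublets were kept in the values given. Scrublet called 86 of 6777 cells (1.27%) and 1 of 4041 (0.0247%), and did not work in the latter. Clusters (21) came from 2000 variable genes picked with scanpy, 10 components and 20 neighbours found with scikit-learn. The Leiden partition at resolution 0.8 was made with igraph and leidenalg. The 2-fold rule was checked on simulated counts. Levels were not compared between genes, since 3′ counts depend on capture.

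All 6 members were named, with the 3 most alike genes for members with at least 50 UMIs in gated cells, and fixed genes of the pathway and stress lists. Members and lists were chosen with earlier results of these data known. Alternatives changed filter, marker level, class source, doublets, cells summed, thresholds, thinning and scaling (TMM from edgeR 4.0.16 in R 4.3.3, for scaling alone). Software was scanpy 1.11.5, scikit-learn 1.9.0, matplotlib 3.10.9, pandas 2.3.3, scipy 1.17.1 and numpy 2.4.6 in Python 3.11.15. Human FSTL3 was not analysed here, and the genotype of the KPCA line is not reported here in full.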

Additional observations from a re-analysis of the deposited data

Results flagged for a closer look

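Barcodes with markers of unrelated classes are in none of the class values, and Gdf15 and Gdf10 were higher in them in the KPCA.FSTKO_hFSTL3 library than in the control library. Gdf15 was at 37.2 CPM (35.5 to 38.9) in 3018 such barcodes of KPCA.FSTKO_hFSTL3, 41.3% of which had a UMI, against 22.3 CPM (19.5 to 25.4) in 585 such barcodes of KPCA.FSTKO. Gdf10 was at 1.65 CPM (1.32 to 2.04) from 86 UMIs in 59 barcodes, against 0.0999 CPM (0.00253 to 0.557) from 1 UMI. Of the 59 barcodes 54 had 1 UMI and the highest had 12. Over the whole library, 60 of 60 barcodes with Gdf10 carried at least 3 acinar markers, as did 93.6% of those without. Cluster 5, where fibroblast-gated cells lead, held 32 of the 87 UMIs in 5 barcodes, and cluster 0, absent from KPCA.FSTKO, held 50 in 50. Barcodes with markers of unrelated classes differed in make-up between the libraries. A median of 16 of 18 acinar markers was present in those of KPCA.FSTKO_hFSTL3, against 0 in KPCA.FSTKO, with median mitochondrial shares of 11.6% and 3.77%. In cancer-gated cells Gdf15 went the other way, with 29.8 CPM against 58.3 CPM. The differences were not tested, since each genotype has 1 library, and the parts of make-up and genotype cannot be told apart.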

How the results depend on the processing

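No paired analysis was possible because each genotype has 1 library, and for the same reason no replicate could be left out. Of 238 values under alternatives, 178 stayed near the main value, 57 moved further and 3 changed direction. Near meant within the counting interval of the main value, or for numbers of genes within a fixed fold of the main number. The class with the highest level was the same under all 10 alternatives tried for Inhbb and Gdf15, under 9 for Gdf10, 7 for Gdf11 and Gdf6 and 6 for Inha. Inhbb in endothelial-gated cells (375.3 CPM) was 309.3 CPM with the class of each cluster and 298.9 CPM thinned to 1000 UMIs. Gdf15 in cancer-gated cells (58.3 CPM) was 56.4 CPM without the 5% of cells with most UMIs, 45.6 CPM without the 1% of cells with most Gdf15, 52.2 CPM thinned and 52.4 CPM as a mean over cells. Gdf11 in cancer-gated cells (2.38 CPM) was 1.85 CPM without the 1% of cells with most Gdf11 and 1.76 CPM thinned. Gdf6 in myofibroblast-gated cells (41.4 CPM) was 19.96 CPM with the marker level doubled and 0 thinned, and its ratio to fibroblast-gated cells (1.93) was 0.85 and 0, respectively. No cluster was led by myofibroblasts, so that alternative gave no Gdf6 value. The ratio of Gdf15 between the libraries (0.511) was 0.685 over all filtered barcodes, 0.599 without the 1% of cells with most Gdf15 and 0.481, past 2-fold, with TMM factors, which shifted all log2 ratios by -0.09. Genes at least 2-fold higher (414) and lower (1024) numbered 887 and 2043 from 20 UMIs, 2285 and 7184 from 1 UMI, 77 and 388 at a ratio of 4, and 332 and 1146 with TMM factors, which put 22.5% of the calls on the higher side against 28.8%. With the acinar and erythroid lists kept from competing, an alternative chosen after seeing the data, cancer-gated cells numbered 4202 and 606 and the ratio of Inhbb between the libraries (0, from 32 UMIs and 0) was 2.57. The thinning to 5000 UMIs and the values within clusters were also added after seeing the data. The causes were not tested. Few UMIs limit Inha and Gdf10, and few gated cells limit KPCA.FSTKO_hFSTL3, with 175 cancer-gated and 9 endothelial-gated cells.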
